A study of Mus musculus with 2 samples.

Results

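The genes whose names on the array start with Kcn were compared between kidneys of *Cnnm2*-deficient and control mice. Every probe for a gene with such a name was taken, *Kcnj1* and *Kcnj10* were left out, and 93 of 31821 gene names remained. All but *Kcnq1ot1*, a noncoding transcript, and *Kcnrg* encode pore-forming or accessory subunits of potassium channels. *Kcnrg* encodes a protein that binds subunits of voltage-gated channels, and it is counted with the accessory subunits. *Kcnq1ot1* is counted with the channel genes below. The knockout was *Cnnm2*fl/fl;*Six2-Cre* and the control was *Cnnm2*+/+;*Six2-Cre*, both 2 months old, so that the control carries the Cre transgene as well. *Six2-Cre* drives a Cre recombinase fused to GFP in the embryonic kidney, in the progenitors of the nephron. The collecting duct, the vessels and other cells of the kidney have another origin. Kidney RNA of both genotypes was hybridized together on a pair of 2-colour arrays. The knockout RNA of array 1 carried Cy5 and the control RNA Cy3, and array 2 had these dyes exchanged.

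Potassium channels let potassium ions leave the cell along their gradient and so set the membrane voltage. In the kidney, channels of the basolateral membrane recycle the potassium that the sodium pump brings in, and channels of the apical membrane secrete it into the urine. The families differ in what opens them. Inward rectifiers (Kcnj) and 2-pore channels (Kcnk) conduct at rest, the Kcna to Kcnd, Kcnh and Kcnq families open with voltage, and the Kcnma, Kcnn, Kcnt and Kcnu families respond to intracellular ions or pH. Accessory subunits bind to pore-forming subunits and change their opening or their transport to the membrane.

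Every value below is a log2 ratio of knockout over control or a log2 processed signal, both of the brightest probe of a gene, and each is named as one or the other. Of a pair of log2 ratios, the first is that of array 1. The signal of a probe depends on its sequence, so that the signals of different probes do not rank the genes. How many mice gave each RNA sample, and whether the arrays carry the same RNA, are not stated in the sources used here. The arrays were taken as repeats of the labeling and hybridization of 1 RNA sample per genotype. The genotypes were therefore compared by size and direction without a test, and an SD here is the one between the arrays, with no variation between mice in it. In RNA of whole kidney, fewer cells of a type and less RNA per cell cannot be told apart.

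The labels were checked on the deleted gene, which had log2 ratios of -2.88 and -2.46. None of the 161 spots for channel genes was saturated, and outliers left out numbered 1 on array 1 and 4 on array 2. The median signal of these spots before background subtraction was between 60.4 and 73.8 in the 4 channels, over local backgrounds between 34.0 and 44.0. Defining markers of the tubule segments, podocytes, endothelium and smooth muscle were well above background in all their listed genes. Of 3 distal convoluted tubule markers, *Trpm6* and *Pvalb* were at least 2-fold lower in the knockout, with mean log2 ratios of -1.40 and -1.75, and *Slc12a3* had log2 ratios of -0.78 and 0.19. The summed processed signal of these 3 markers was 2890 and 3700 in the knockout and 6720 and 5440 in the control.

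The probes that the results below turn on are shown by the first 30 of their 60 bases, 5′ to 3′, to show what was read for the channel genes at least 1.5-fold changed, for 2 bright genes with ratios near 0, and for a gene whose probes gave different ratios. The bases are those of the array files, all in lower case since no part of them is singled out.

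Kcng1, A_55_P2055189: ttcatcccagttcgggtgggtagggcaaca

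Kcnab3, A_52_P151116: gaagacttaaatctagaactagagtcacac

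Kcnj16, A_55_P2156304: ttataacatgctttgacacgcctgatggct

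Kcnj15, A_55_P2164090: cataatgcctccacgacatgagcccctcta

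Kcnj15, A_52_P101303: agacggcagtcaccacaaaagaaaactgaa

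In the mm9 build that the files use, the *Kcng1* probe lies on chromosome 2 from 168087201 to 168087260 and the *Kcnab3* probe on chromosome 11 from 69146197 to 69146256. The *Kcnj16* probe spans 110889223 to 110889282 on chromosome 11. Both *Kcnj15* probes lie on chromosome 16, the brighter from 95521158 to 95521217 and the other from 95519395 to 95519454. The share of G and C over the whole probe was 55.0% for *Kcng1*, 38.3% for *Kcnab3*, 36.7% for *Kcnj16*, and 36.7% and 41.7% for the *Kcnj15* probes. Which exon or untranslated region each probe lies in was not analysed here, since no gene models of that build were used.

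A gene was compared where the scanner software called its probe well above background in the knockout of both arrays or in the control of both arrays. Of the 93 channel genes, 45 (48.4%) were compared, against 61.9% of all gene names on the arrays. All but *Kcnk15* passed in all 4 channels. The *Kcnk15* probe passed in the control on both arrays and in the knockout on array 1 only. A further 35 genes were above background in no channel, among them *Kcnj2*, *Kcnj11*, *Kcna10*, *Kcnk2*, *Kcnq5* and *Kcne2*, and 13 were above it in 1 or 2 of the 4 channels. The calcium- or sodium-activated family had the most complete detection, with 7 of 8 genes compared. Of the voltage-gated Kcna to Kcnd genes 9 of 17 were compared, of the Kcnk genes 8 of 14, of the Kcnj genes 6 of 13, and of the silent voltage-gated genes 2 of 10. *Kcng1*, *Kcns3* and all other members called silent form no channel alone and change other voltage-gated channels when they join them.

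**Figure D1:**
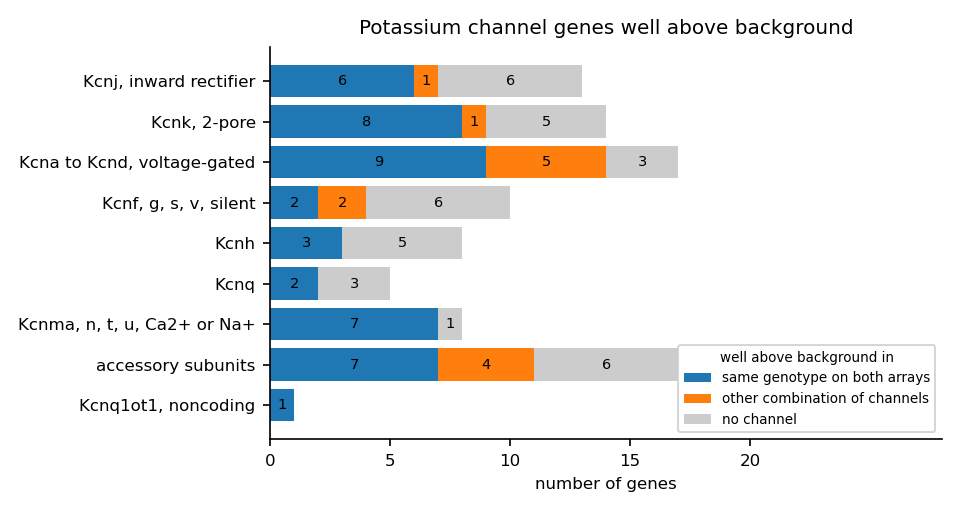
Number of channel genes (x axis) in each family (y axis) whose brightest probe was well above background in a genotype on both arrays (blue), in another combination of channels (orange) or in no channel (grey). The blue bars hold 45 genes, the orange bars 13 and the grey bars 35.

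No channel gene was above background in 1 genotype on both arrays and in the other genotype on neither array. Of the 7 genes above background in 2 channels, 6 passed in the Cy5 channel of both arrays, that is in the knockout on array 1 and in the control on array 2. These were *Kcna1*, *Kcnf1*, *Kcng2*, *Kcnj4*, *Kcnk9* and *Kcnmb1*. *Kcne1*, the partner of the *Kcnq1* channel, passed in the Cy3 channel of both arrays. Over all gene spots, the Cy5 channel passed for 68.0% on array 1 and 67.6% on array 2, and the Cy3 channel for 63.0% and 62.6%. How many of all genes had these combinations of channels was not counted. *Kcna1* encodes a voltage-gated channel of the distal convoluted tubule. The log2 signal of its probe was 4.05 for the knockout and 2.86 for the control on array 1, and 1.63 and 3.73 on array 2. The higher value was therefore in the Cy5 channel each time, and no ratio between genotypes is drawn from it.

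No channel gene reached a mean change of 2-fold with the same direction on both arrays. Over all 19708 genes compared, 0.315% were higher and 0.284% were lower by that rule. At 1.5-fold, 1 of the 45 channel genes was higher (*Kcng1*) and 1 was lower (*Kcnab3*), where 1.0% of all genes were higher and 1.06% lower. The same direction on both arrays was seen for 6 channel genes as higher and 10 as lower. Among all genes the shares were 12.1% and 15.6%, against 13.3% and 22.2% of the channel genes. The median log2 ratio was -0.04 over the channel genes and -0.01 over all genes compared. The dye contrast is the ratio of array 1 minus that of array 2, divided by 2, and a genotype effect cancels in it. Its median size was 0.23 over the channel genes and 0.21 over all genes compared. The mean ratio had a median size of 0.11 over the channel genes and 0.09 over all genes compared.

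**Figure D2:**
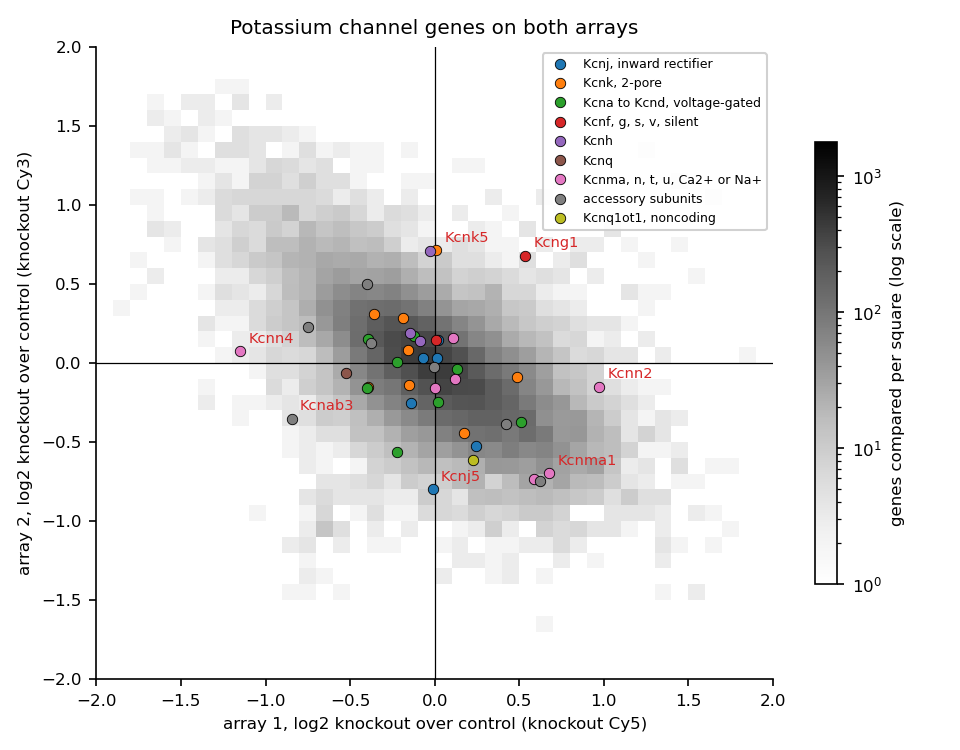
Log2 ratio of knockout over control on array 1 (x axis) and array 2 (y axis) for 43 of the 45 channel genes compared (points, coloured by family), over the number of all genes compared in each square (grey, log scale), with 126 genes outside the axes. Of the genes plotted, 27 lie in the upper left and lower right quadrants, where the arrays gave opposite directions.

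Across the 45 channel genes, the log2 ratios of the arrays had a Pearson's r of -0.38 and a Spearman's rho of -0.41. Over all genes compared these values were -0.51 and -0.56. The points of either correlation share the same 2 arrays and are not independent replicates. For 14 of the 45 channel genes the Cy5 channel was the higher on both arrays, and for 15 genes the Cy3 channel was. Among all 19708 genes compared, these numbers were 7637 and 6613. The mean ratio exceeded the SD of the arrays for 10 of 45 channel genes (22.2%) and for 20.7% of all genes. A mean ratio under 0.25 in size was found for 33 channel genes (73.3%) and for 85.3% of all genes. The rule of the study's methods, a paired Student's t-test over the arrays at p under 0.1 with a mean fold over 2, called 0 channel genes and 0.183% of all genes. That test takes the arrays as replicates. Without the limit on fold, it passed 2 channel genes (4.44%), *Kcnk13* and *Kcng1*, and 984 of all genes (4.99%).

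*Kcnj16* and *Kcnj15*, the inward rectifiers with the brightest probes, had ratios near 0. *Kcnj16* encodes a subunit of the basolateral channel of the distal convoluted tubule. Its log2 signal was 15.09 for the knockout and 15.15 for the control on array 1, and 14.80 and 14.77 on array 2. The genotypes differed by log2 ratios of -0.07 and 0.03 (mean -0.02 ± 0.07, SD), so the direction was not the same. For *Kcnj15*, a subunit of the basolateral channel of the proximal tubule, the log2 signals were 14.18 for the knockout and 14.16 for the control on array 1 and 13.99 and 13.84 on array 2. The knockout was the higher on both arrays, with a mean log2 ratio of 0.08 ± 0.09 (SD). *Kcnj13*, an inward rectifier of transporting epithelia with a dimmer probe (mean log2 signal 6.87), had log2 ratios of 0.01 and 0.03. The SD of the arrays was at most 0.09 for *Kcnj16*, *Kcnj15* and *Kcnj13*, beside a median of 0.33 over the channel genes compared.

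*Kcnj8* encodes the pore of the ATP-sensitive channel of vascular smooth muscle. Its probe had a log2 signal of 6.43 for the knockout and 6.57 for the control on array 1, and 6.24 and 6.49 on array 2. It was the lower in the knockout each time, with log2 ratios of -0.14 and -0.25. *Kcnj5*, a channel gated by G proteins, had the lowest mean ratio of the family (-0.41 ± 0.56, SD), and nearly all of it came from array 2. The log2 ratios were -0.01 and -0.80. *Kcnj12*, an inward rectifier of muscle, had log2 ratios of 0.24 and -0.53. Its probe was brighter than that of *Kcnj13* (mean log2 signal 7.20), and the SD of its arrays was 0.54. The median log2 ratio of the 6 inward rectifiers compared was -0.08.

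**Figure D3:**
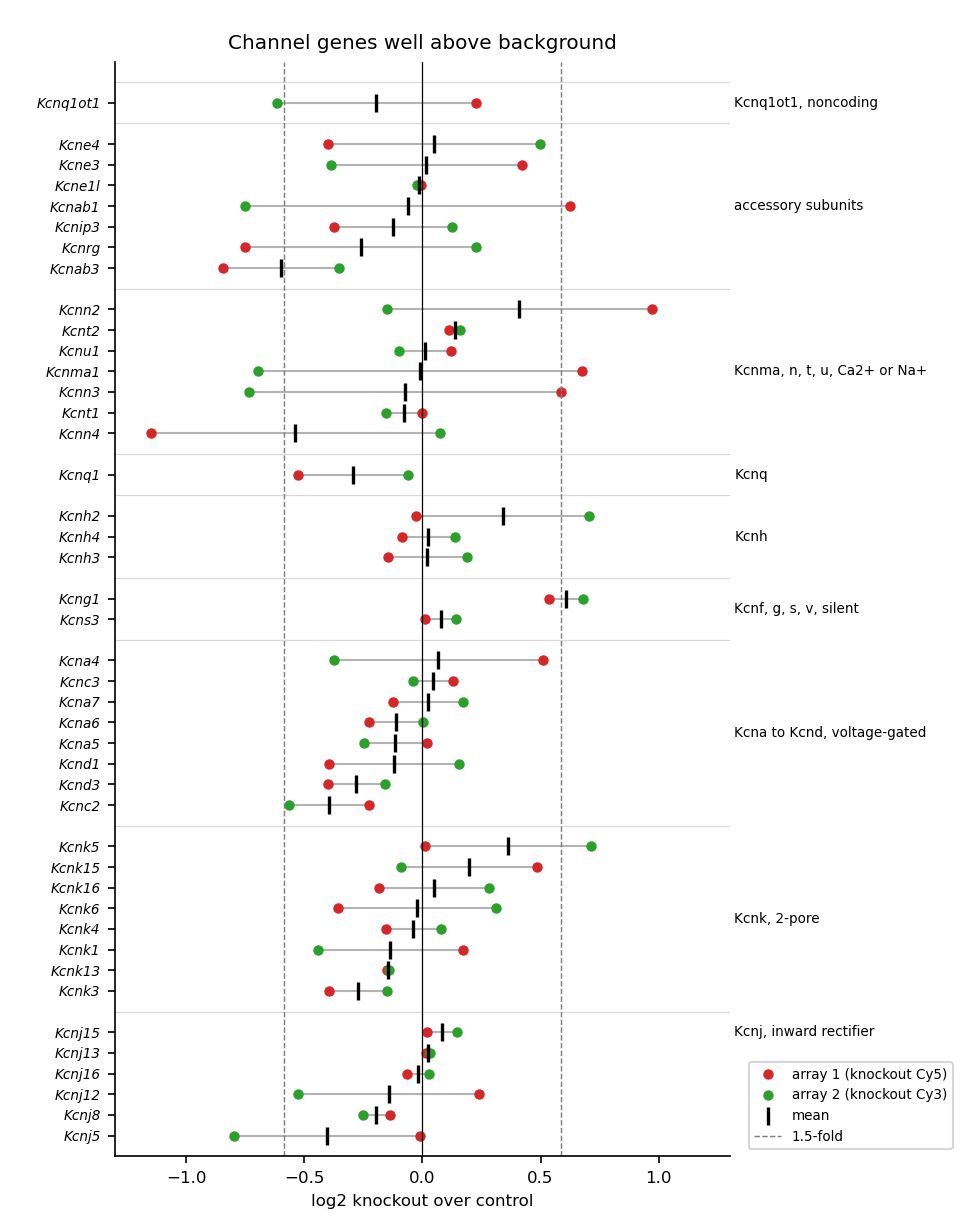
Log2 ratio of knockout over control (x axis) on array 1 (red), array 2 (green) and as their mean (black bar) for 43 of the 45 channel genes compared (y axis), by family, with dashed lines at 1.5-fold. *Kcng1* and *Kcnab3* are the genes whose mean lies beyond a dashed line with both arrays on the same side of 0.

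Among the 2-pore channels, which carry resting leak currents, *Kcnk5* had the highest mean log2 ratio at 0.36 ± 0.50 (SD). This channel opens with alkaline pH and belongs to the proximal tubule. The log2 signal was 11.16 for the knockout and 11.15 for the control on array 1, and 11.35 and 10.64 on array 2. The genotypes thus differed on array 2 alone, by 0.71. *Kcnk13* and *Kcnk3* were lower on both arrays. *Kcnk13* had log2 ratios of -0.15 and -0.14, and *Kcnk3*, an acid-sensitive channel, had -0.40 and -0.15. *Kcnk1*, a channel of several tubule segments, had log2 ratios of 0.17 and -0.44, and *Kcnk6* had -0.36 and 0.31. The remaining members, *Kcnk4*, *Kcnk15* and *Kcnk16*, had opposite directions as well. The median over the 8 genes compared was -0.03.

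Of the 9 voltage-gated genes of the Kcna to Kcnd families compared, *Kcnc2* and *Kcnd3* were lower on both arrays and none was higher on both. *Kcnc2* encodes a fast delayed rectifier. On the log2 scale its signal was 5.99 for the knockout and 6.22 for the control on array 1, and 5.39 and 5.96 on array 2, for a mean log2 ratio of -0.39 ± 0.24 (SD). *Kcnd3* forms the pore of a transient current. Its log2 ratios were -0.40 and -0.16 (mean -0.28 ± 0.17, SD), and those of *Kcnd1*, of the same family, were -0.40 and 0.15. *Kcna4*, a rapidly inactivating channel, had one of the 3 brightest probes among the channel genes. The log2 signal was 12.31 for the knockout and 11.80 for the control on array 1, and 11.47 and 11.84 on array 2. The Cy5 channel was the higher each time, and the mean log2 ratio was 0.07. *Kcna5* had log2 ratios of 0.02 and -0.25.

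*Kcng1* had the highest mean log2 ratio of the channel genes. This silent subunit joins other voltage-gated subunits. The probe had a log2 signal of 6.46 for the knockout and 5.92 for the control on array 1, and 6.18 and 5.50 on array 2. The knockout was the higher on both arrays, by log2 ratios of 0.54 and 0.68 (mean 0.61 ± 0.10, SD, or 1.52-fold). A second *Kcng1* probe was above background in no channel. *Kcns3*, another silent subunit, had log2 ratios of 0.01 and 0.14.

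Of the Kcnh family, of voltage-gated channels, *Kcnh2* had log2 ratios of -0.03 and 0.71, *Kcnh3* of -0.15 and 0.19, and *Kcnh4* of -0.09 and 0.14. All 3 had the Cy3 channel as the higher on both arrays. *Kcnq1* encodes a slow delayed rectifier of heart and epithelia. The log2 signal was 10.93 for the knockout and 11.45 for the control on array 1, and 10.88 and 10.94 on array 2. The log2 ratios were -0.53 and -0.06 (mean -0.29 ± 0.33, SD). A probe with another gene name, described on the array as similar to *Kcnq1* and therefore not counted here, gave log2 ratios of -0.53 and -0.09. *Kcnq1ot1*, a noncoding transcript of the *Kcnq1* locus that is read from the opposite strand and has its own accession on the array, had log2 ratios of 0.23 and -0.61. Its second probe gave -0.56 and 0.18. The directions of its probes were thus opposite on each array, while their means were -0.19 and -0.19.

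The mean log2 ratios of the calcium- and sodium-activated channels ranged from -0.54 to 0.41. *Kcnma1* forms the large-conductance channel that secretes potassium in the collecting duct when flow rises. The log2 signal was 6.62 for the knockout and 5.95 for the control on array 1, and 5.93 and 6.63 on array 2. Its log2 ratios of 0.68 and -0.70 nearly cancelled, and the mean was -0.01 ± 0.97 (SD). *Kcnn4*, the intermediate-conductance channel, had log2 ratios of -1.15 and 0.07. It was the 1 channel gene of 45 (2.22%) with a 2-fold difference on array 1, against 4.35% of all genes, and on array 2 there were 0 channel genes, against 3.55%. *Kcnn2*, a small-conductance channel, had log2 ratios of 0.97 and -0.15. Its probe was read from 10 spots on array 1 and 9 on array 2. The SD of the log2 ratio between its spots was 0.07 on array 1 and 0.05 on array 2, against an SD of 0.79 between the arrays. *Kcnt2*, a sodium-activated channel, was higher on both arrays (0.11 and 0.16). *Kcnt1*, of the same family, was at -0.0002 and -0.16, and *Kcnn3* was at 0.59 and -0.73.

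Of the accessory subunits, *Kcnab3* was lower in the knockout on both arrays. It encodes a cytoplasmic subunit of voltage-gated channels. The probe was dim, with a log2 signal of 3.80 for the knockout and 4.64 for the control on array 1, and 3.99 and 4.34 on array 2. The log2 ratios were -0.85 and -0.35, with a mean of -0.60 ± 0.35 (SD), or 1.51-fold lower. This was the lowest mean ratio of the channel genes. *Kcnab1*, of the same family, had log2 ratios of 0.62 and -0.75. *Kcne1l* differed by -0.01 and -0.02. *Kcne3* had log2 ratios of 0.42 and -0.39, *Kcne4* of -0.40 and 0.50, and *Kcnip3*, a calcium sensor that binds the Kcnd channels, of -0.38 and 0.13. *Kcnrg*, which binds subunits of voltage-gated channels, had log2 ratios of -0.75 and 0.23. None of the 4 Kcnmb subunits of the *Kcnma1* channel was compared.

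A list of 30 channel genes with a known place in the kidney held 18 that were compared. None was at least 1.5-fold changed, where 1.0% of all genes compared were higher and 1.06% lower by that limit. The same direction was seen for 3 as higher (*Kcnj13*, *Kcnj15* and *Kcnk5*) and for 6 as lower (*Kcnj5*, *Kcnj8*, *Kcnk3*, *Kcnk13*, *Kcnq1* and *Kcnt1*). Of all genes compared, 12.1% were higher and 15.6% lower on both arrays. The median log2 ratio of the list was -0.07, beside -0.01 for all genes compared. Of 17 partners of potassium channels and related genes with other names, 12 were compared and 1 passed either limit. This was *Dpp10*, a subunit of the Kcnd channels, with log2 ratios of -0.51 and -1.49 (mean -1.0 ± 0.69, SD). Its log2 signal was 3.45 for the knockout and 3.97 for the control on array 1, and 2.12 and 3.61 on array 2. The probe was well above background in 3 of the 4 channels and not in the knockout on array 2. It was thus compared only through the control, where it was the higher, and such a filter favours a lower ratio. Of all genes compared, 0.284% were at least 2-fold lower. A second *Dpp10* probe, above background in no channel, had log2 ratios of 0.57 and 0.19. *Lrrc26*, an accessory subunit of the *Kcnma1* channel, was the highest, with log2 ratios of 0.72 and 0.25.

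Of the 93 channel genes, 34 had more than 1 probe, and 9 had 2 probes that were both compared. The mean log2 ratios of the probes of a gene differed by 0.13 in the median and by at most 0.32. The sign of the mean differed between the probes of 3 genes, *Kcne1l*, *Kcne3* and *Kcnj15*, each with means under 1.5-fold. The dimmer *Kcnj15* probe shown above had log2 ratios of -0.71 and 0.31, where the brighter one had 0.02 and 0.15. The brighter probe thus differed far less between the arrays. Both *Kcnma1* probes were the higher in the Cy5 channel of each array, as were both *Kcne3* probes.

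**Figure D4:**
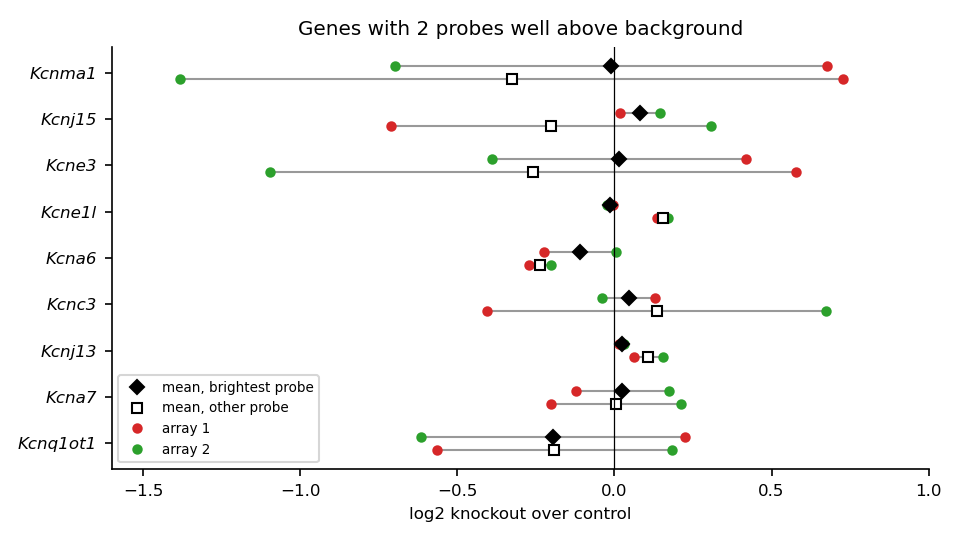
Log2 ratio of knockout over control (x axis) of both probes of the 9 genes (y axis) with 2 probes compared, on array 1 (red) and array 2 (green), with the mean of the brightest probe (filled) and of the other probe (open). The means of a gene lie within 0.32 of each other, and the widest gap between the arrays is that of the other *Kcnma1* probe, with 0.73 and -1.38.

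The 1.5-fold values depended on how the background was treated. Normexp background correction was run with an offset of 50 added to both channels, and was followed by loess normalization. The mean log2 ratio of *Kcng1* was then 0.18, that of *Kcnab3* was -0.08 and that of *Dpp10* was -0.02. With loess and no background correction, they were 0.39, -0.19 and -0.16. The directions of the 3 genes were kept, and none was then 1.5-fold changed. An amount added to both channels, or background left in them, makes the ratio of a dim probe smaller in size. The smaller ratios were thus partly fixed by these settings and do not decide whether the genes changed. With background-subtracted signals centred on the median, *Kcng1* was at 0.66 and *Kcnab3* at -0.57, which left *Kcng1* as the 1 channel gene past the limit. *Dpp10* was then at -0.90, past 1.5-fold and under 2-fold. The median over both of its probes was -0.31, under 1.5-fold. On single arrays, *Kcng1* fell short of 1.5-fold on array 1 (0.54) and *Kcnab3* on array 2 (-0.35). Over all genes, the count past 1.5-fold fell from 406 to 105 with normexp and loess, and to 167 with loess and no background correction.

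**Figure D5:**
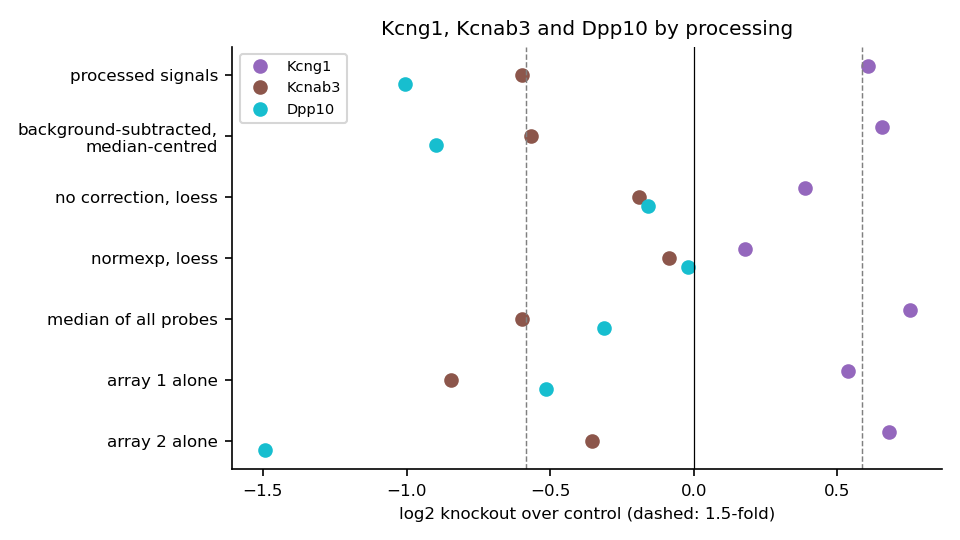
Mean log2 ratio of knockout over control (x axis) of *Kcng1*, *Kcnab3* and *Dpp10* under 7 ways of processing (y axis), with dashed lines at 1.5-fold. *Kcng1* lies between 0.18 and 0.75, *Kcnab3* between -0.85 and -0.08 and *Dpp10* between -1.49 and -0.02. The 0.75 of *Kcng1* is the median over its probes, which include a probe above background in no channel.

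Markers of other cells were set beside these values. All 4 urothelium markers were higher in the knockout on both arrays, with mean log2 ratios from 0.36 to 0.87. Their summed processed signal was 2200 and 1870 in the knockout and 1610 and 1250 in the control. Both directions occurred among the smooth muscle markers, from -0.25 to 0.27. The podocyte markers lay between -0.32 and -0.11. Of 5 adrenal markers 1 was compared, *Star*, above background in 3 channels with log2 ratios of 0.60 and -1.59. *Pnmt* was above background in 2 channels, and *Cyp11b1*, *Cyp11b2* and *Cyp11a1* in no channel. Of 4 skeletal muscle markers, *Acta1* was above background in all 4 channels (-0.56 and 0.34), and *Ckm*, *Myh4* and *Mylpf* in no channel. Of 5 neuronal markers, *Snap25* (0.26 and -0.14), *Elavl3* (-0.49 and 0.56) and *Th* (-0.11 and 0.17) were above background in all 4 channels, and *Prph* and *Dbh* in no channel. Summed processed signals of the neuronal list were 3530 and 2600 in the knockout and 3030 and 2790 in the control. The part of these cells, and of the distal convoluted tubule, in the ratios of the channel genes was not tested. The probes of the compared channel genes held a median of 41.7% G and C, as did those of all genes compared. Across the 45 genes, this share had a Pearson's r of -0.15 with the dye contrast and of 0.08 with the mean ratio, given as a description. Over all genes compared these values were -0.22 and -0.01.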

How the data were processed

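The members, lists and limits were chosen with earlier results of these data known. Per the file headers, each array was read with Feature Extraction 10.7.3.1 of Agilent, while the submitters' processing notes name 10.5.1.1. The deposited intensity of each spot is given raw, background-subtracted and as a processed signal corrected for background, spatial trend and dye. The log10 ratio of red over green was deposited by the authors too. The deposited matrix held the log10 ratio of knockout over control, within 0.005 of the scanner's. Here, processed signals were taken to log2, turned to knockout over control by the dye labels and averaged over the spots of a probe. Controls were left out, as was any spot flagged as non-uniform or as a population outlier, and the brightest probe of each gene name was used. A change needed the same direction on both arrays and a mean of at least 1.5-fold or 2-fold. All 93 names matched RefSeq symbols (GRCm38.p6), which gave no coordinates. Named genes were the changed members, the 10 brightest, a list of kidney channels, the extremes of each family and changed partners; any others were picked with their values known. The methods' t-test and limma 3.58.1 (R 4.3.3, with Python 3.11.15) were alternatives, and the code was tested on simulated data. The number of arrays limits the precision. The single values of 2 compared genes are not reported here, and these genes are left out of the plots by gene.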

Additional observations from a re-analysis of the deposited data

How the results depend on the processing

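Counts at 1.5-fold were 0 with normexp and loess, 0 with loess on uncorrected signals, and 1 with background-subtracted signals centred on the median, against 2 as reported. From 1 array alone they were 8 to 9, with *Kcng1* past the limit on array 2 and *Kcnab3* on array 1 (lowest 8 or 17.8% without array 2, highest 9 or 20% without array 1, against 16.9% and 12.9% of all genes), and counts at 2-fold were 0 to 1, the 1 being *Kcnn4*. Every other alternative gave 0 at 2-fold, limma and the methods' t-test after Benjamini-Hochberg adjustment among them. These adjusted tests called 0 of all genes compared as well, so their result says nothing about the channel genes in particular. Limma also had 0 channel genes at an unadjusted p under 0.05, against 256 of all genes (1.3%). With no limit on signal, the arrays shared a direction for 26 of 93 genes (28%) and for 25.3% of all genes, against 16 of 45 (35.6%) and 27.7%. The median log2 ratio was 0.0029 with normexp and loess, and -0.0396 to -0.0121 from single arrays, against -0.038. Detection stayed at 45 genes under both alternatives. Of 31 genes followed singly, normexp with loess moved 7 by more than the SD of their arrays and loess alone moved 5. Genes with a large SD can stay within that limit while their ratio shrinks. With normexp and loess, *Kcnj5* went from -0.405 to -0.08 and *Kcnh2* from 0.34 to 0.0045, both within it. Beside *Kcng1*, *Kcnab3* and *Dpp10*, normexp with loess moved *Kcnc2* to -0.06, *Kcnj8* to -0.03, *Kcnk3* to -0.04 and *Kcnk13* to -0.04. The lower values reported for these genes in the knockout thus depended on the background treatment as well. With the offset of 50, a smaller ratio is partly built into the setting for dim probes. *Kcng1*, *Kcnab3* and *Dpp10* changed direction under none of the settings, though *Dpp10* was at -0.02 with normexp and loess. They were named for having the same direction on both arrays, so the single arrays could not reverse it. Each ratio sets the genotypes of one array against each other, so the comparison is already paired by array and no further block was fitted. Of the 45 genes, 15 had a mean log2 signal under 6, with a median SD of the arrays of 0.41, 21 lay between 6 and 9, with 0.17, and 9 lay over 9, with 0.33. Over all genes compared, the median SD in these ranges was 0.42, 0.32 and 0.25.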

Other observations

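Probes that the arrays describe as potassium channel subunits but name by a transcript or locus identifier numbered 7, of which 1 was compared. This was the probe described as similar to *Kcnq1*. Among the related channels, *Hcn2* had a bright probe with log2 ratios of -0.77 and 0.63, and *Abcc9*, the regulatory subunit of the *Kcnj8* channel, had 0.39 and -0.84. For both genes the arrays gave opposite directions, and the same dye was the higher on each array. *Akap9*, an anchor of the *Kcnq1* channel, had log2 ratios of -0.13 and -0.12.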
